A study of Mus musculus with 14 samples.

Results

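The connexin and pannexin channel genes were followed across cultured mouse astrocytes that lacked connexin43 (Cx43) or had it silenced. The set holds 8 genes, taken by symbol from the annotation of the array's probes: Gja1, Gjb2, Gjb6, Gja4, Gja5, Gjc1, Panx1 and Panx2. Of these, 6 had a probe, with 7 probes in all among the 33600 of the array, and 4 genes with 5 probes could be tested. Gjb6 and Panx2 had no probe under their symbols and were not analysed here.

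Connexins are membrane proteins that assemble into hemichannels, and hemichannels of neighbouring cells dock to form gap junction channels, which pass ions, metabolites and second messengers. Pannexins share the membrane topology of connexins but act mainly as channels to the outside, through which cells release ATP. Astrocytes form an extensive gap junction network in which Cx43, the product of Gja1, is the main subunit, with Gjb6 (Cx30) and, at lower levels, Gjb2 (Cx26) beside it.

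The study compared 4 samples of Cx43 null astrocytes, 4 samples of wild-type astrocytes treated with an siRNA (a small interfering RNA, which directs the cleavage of its target mRNA) against Cx43, and 6 samples of wild-type astrocytes. All were cultures made from newborn mouse brain, passaged after confluence, and labelled with Cy3 or Cy5 before hybridisation to spotted oligonucleotide arrays. The siRNA exposure was 36 h per the design text, and protein was checked at 48 h per the protocol, with Cx43 protein reduced by at least 70% as stated there. Titles call the cells cortical, while the protocol describes whole brain tissue. The labels give neither the mouse strain nor how the null allele was made. They describe none of the wild-type samples as transfected, so transfection and loss of Cx43 cannot be told apart in the siRNA samples. The design text speaks of independent cultures, but the labels do not say which samples came from which culture, so the p-values reflect spread among samples that may be technical.

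Values are log2 values as deposited, centred so that the median of every sample was 0, and no test of a spot against its background was used here. Of the wild-type samples, replicates 1, 2 and 5 stood apart: their correlations with the mean of the remaining samples were 0.37, 0.38 and -0.02, against 0.894 to 0.948 for the other 11, so the results rest on those 11 (4 null, 4 siRNA and wild type 3, 4 and 6). Between 53.1% and 79.8% of probes had a value in these 11. Consecutive samples had r of 0.991 for null 1 and 2, 0.988 for siRNA 1 and 2, 0.927 for null 3 and 4, 0.967 for siRNA 3 and 4 and 0.944 for wild type 3 and 4, against 0.923 for wild type 4 and 6, and replicates 1 and 2 differed widely from replicates 3 and 4 in both groups. Of 10 astrocyte markers, 7 were tested. The water channel gene Aqp4 averaged 4.75 ± 0.36 (SD, n = 4) across null, 4.16 ± 0.91 (SD, n = 4) across siRNA and 5.93 ± 0.46 (SD, n = 3) across wild-type samples, while Gfap, the astrocyte filament gene, had no value in any of the 11. Changes come from 1 limma fit over the 11 samples with terms for group, dye and replicate set (1 and 2 against 3 and above), and a probe was called at a Benjamini-Hochberg adjusted p under 0.05 over all 21595 probes tested. The fit takes the shift between the replicate sets as equal in all groups, though wild type holds no replicate 1 or 2 here. Between null and siRNA that shift differed by a limma test in 21.2% of 14728 probes. An unadjusted p under 0.05 was reached by 2980 of the 21595 probes in null and by 4298 in siRNA relative to wild type. In null relative to siRNA 4527 reached it. The comparisons of null and siRNA with wild type share the wild-type samples.

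Gja1 and Panx1 are the members with a called difference, and the 250 bases upstream of their annotated starts are shown for these 2 genes, as RefSeq gives them on GRCm38.p6, written 5′ to 3′ on the gene's strand. The Gja1 promoter lies at chr10:56377050-56377299 on the + strand and the Panx1 promoter at chr9:15045479-15045728 on the - strand. Capitals mark TGAGTCA (the AP-1 element) in Gja1 and, on the opposite strand, CCAAT in Panx1.
Gja1: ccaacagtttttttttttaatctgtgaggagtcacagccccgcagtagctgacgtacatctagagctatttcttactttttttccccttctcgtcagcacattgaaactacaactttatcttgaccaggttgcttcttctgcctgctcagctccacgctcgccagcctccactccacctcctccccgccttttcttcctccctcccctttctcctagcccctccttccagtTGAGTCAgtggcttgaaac
Panx1: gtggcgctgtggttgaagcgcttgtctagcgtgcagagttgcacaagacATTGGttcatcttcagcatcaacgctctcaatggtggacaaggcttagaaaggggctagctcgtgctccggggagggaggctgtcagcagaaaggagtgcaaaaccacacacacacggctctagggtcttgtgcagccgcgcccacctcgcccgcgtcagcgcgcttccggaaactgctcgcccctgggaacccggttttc
Of the 8 members, 6 had an entry in the promoter table (Gja1, Gja4, Gja5, Gjb2, Gjb6 and Panx1). TGAGTCA, searched on both strands, occurred among these 6 in Gja1 alone, with its first base at -19 counted from the base before the start, and 4.46% of 32851 promoters hold it. GGGCGG, the GC box, occurred in Gja4, Gja5 and Gjb2 and in 32.7% of all promoters. CCAAT was found in Panx1 alone of the 6 and in 33.8% of all promoters. TATAAA occurred in none of the 6 windows and in 12.4% of all promoters. A match is a description of the letters only.

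Gja1, which both the null allele and the siRNA target, had its lowest levels in null astrocytes. The log2 values were -1.17, -1.06, 2.82 and 3.03 in null replicates 1 to 4. In siRNA replicates 1 to 4 it was 1.93, 2.14, 5.47 and 5.70, and in wild-type replicates 3, 4 and 6 it was 6.08, 7.53 and 4.82. Every null sample lay below every wild-type sample, whereas siRNA replicates 3 and 4 lay within the wild-type range and siRNA replicates 1 and 2 below it. How many of all probes separate null from wild type in this way was not counted. Each null sample was also below the siRNA sample of the same number, but null 3 and 4 were above siRNA 1 and 2.

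**Figure D1:**
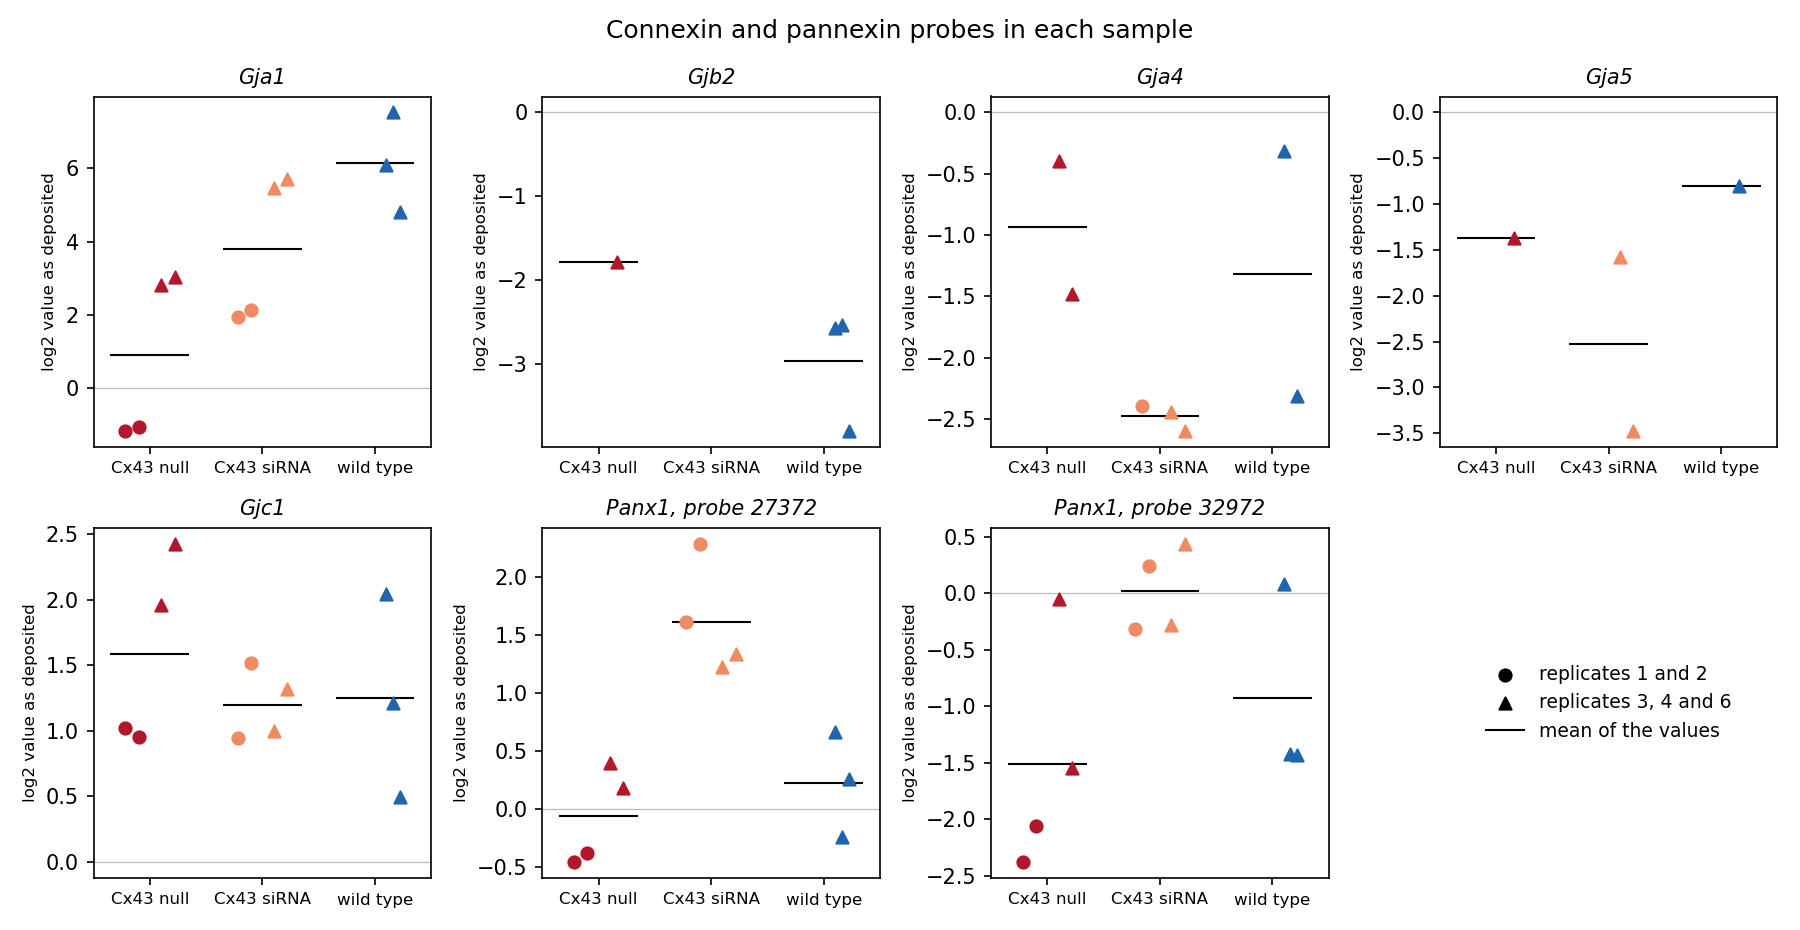
Log2 value as deposited (vertical axes, scaled per panel) of each connexin and pannexin probe in null, siRNA and wild-type samples (horizontal axes); circles are replicates 1 and 2, triangles replicates 3, 4 and 6, bars the mean of the values. Gja1 in the null samples lies between -1.17 and 3.03, and Panx1 probe 27372 in the siRNA samples lies between 1.23 and 2.29.

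In the fit, Gja1 fell by 3.31 ± 0.58 (SE, log2; 9.92-fold) in null relative to wild-type samples (limma adjusted p = 0.0473), and it was the 1 member probe of 5 called, against 0.31% of all probes called in that comparison (67 of 21595; 193 with the replicate number as a block). The change with the replicate number as a block was -4.00 (adjusted p = 0.00113). Null replicates 3 and 4 averaged 2.93 ± 0.15 (SD, n = 2), against 6.14 ± 1.35 (SD, n = 3) for wild-type replicates 3, 4 and 6. An exact two-sided permutation of the 7 samples gave p = 0.0286, the smallest of 35 splits, but it acts on a difference of means of -5.23 that takes no account of the replicate sets, of which wild type holds 1 only. The call was lost with consecutive samples as a random block (adjusted p = 0.28) and without wild type 3 or 4, any null sample or siRNA 1, 3 or 4, where the change ran from -3.42 to -2.65 and the adjusted p from 0.0565 to 0.232.

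The siRNA samples did not differ from wild type in Gja1 by the test. The fitted change was -0.41 ± 0.58 (SE, log2; adjusted p = 0.734) with a 95% interval from -1.68 to 0.85. Of the 5 member probes 0 were called between siRNA and wild type, against 6.09% of all probes. An unadjusted p under 0.05 was found for 2 of them (both Panx1 probes), against 4298 of all 21595 probes. The design text states a 3.24-fold lower Cx43 mRNA, which is -1.70 on the log2 scale, and the interval's nearest bound is -1.68. The labels do not say how that fold was derived. The fitted value depended on how replicates 1 and 2 were treated: without a term for the replicate set the change was -2.31 (adjusted p = 0.587), with the replicate number as a block -1.10 (adjusted p = 0.135), and without wild type 4 it was 0.25 (adjusted p = 0.81). The exact permutation p, again without the replicate sets, was 0.229.

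Between the manipulations, Gja1 was lower in null than in siRNA samples at each replicate number, by log2 differences of -3.09, -3.19, -2.64 and -2.67 for replicates 1 to 4. The fitted difference was -2.90 ± 0.48 (SE, log2; 7.46-fold; limma adjusted p = 0.00746). This comparison called 2 of the 5 member probes, both lower in null, against 5.18% of all probes (1118; 1835 with the replicate number as a block). The difference was -3.14 within replicates 1 and 2 and -2.66 within replicates 3 and 4, and these did not differ by the test (difference 0.49 ± 0.34, SE; adjusted p = 0.341). Replicates 3 and 4 stood above replicates 1 and 2 by 4.04 in null and 3.55 in siRNA samples, so the spread within each group exceeded the difference between them. An exact permutation within the replicate sets gave p = 0.0556, the smallest of 36 arrangements, and with consecutive samples as a random block the adjusted p was 0.0515. The call held with any 1 sample left out. The part of Gja1 that the null allele alters and the position of the probe are both unknown here. The signal left in null samples therefore does not check the allele.

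**Figure D2:**
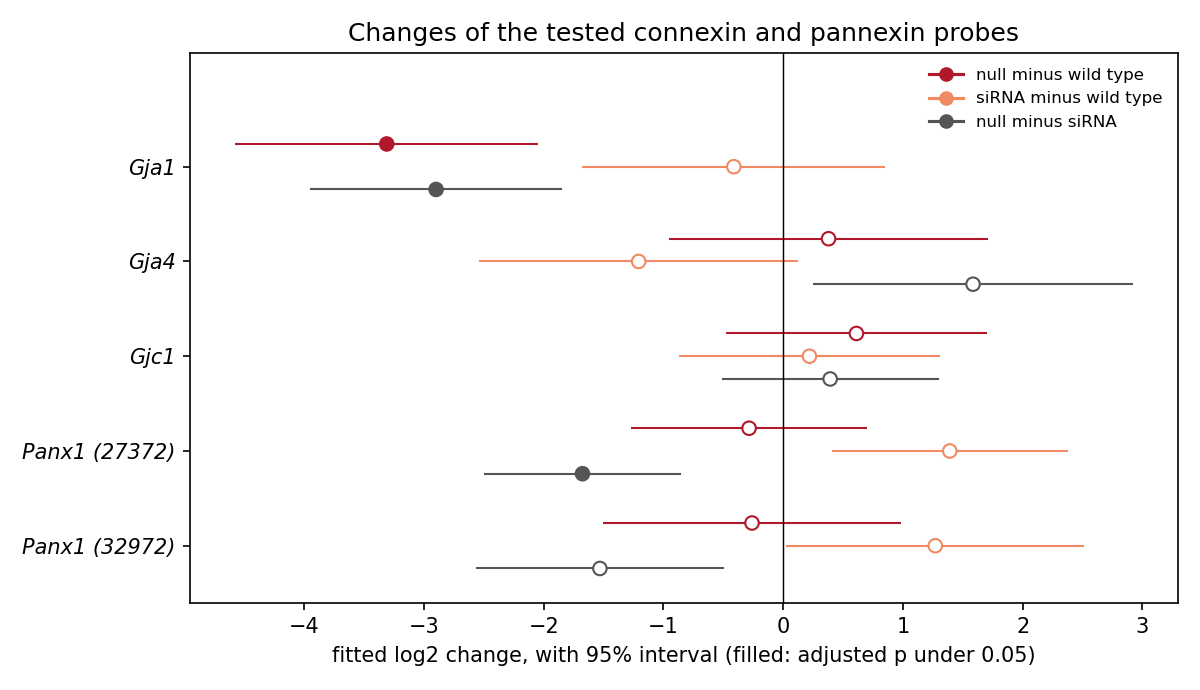
Fitted log2 change (horizontal axis) with its 95% interval for the 5 tested probes in null minus wild type, siRNA minus wild type and null minus siRNA; filled points have an adjusted p under 0.05. Gja1 is filled for null minus wild type (-3.31) and null minus siRNA (-2.90), and Panx1 probe 27372 for null minus siRNA (-1.68).

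Gjb2, whose product Cx26 forms gap junctions in astrocytes and in the inner ear, had a value in 1 of 4 null, 0 of 4 siRNA and 3 of 3 wild-type samples. The null value was -1.79 in replicate 4, and the wild-type values were -2.56, -2.53 and -3.79. All 4 lie below the median of their sample. Missing values carry no reason in the files, so an absent value is neither a low level nor a zero, and no test was made.

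Gja4 and Gja5 encode Cx37 and Cx40, the connexins of arterial endothelium. Gja4 had values of -0.39 and -1.48 in null replicates 3 and 4, of -2.40, -2.45 and -2.60 in siRNA replicates 2, 3 and 4, and of -0.31 and -2.32 in wild-type replicates 3 and 4. The siRNA samples were the lowest and close together, whereas the null values lay within the span of the wild-type values. Of these 7 values siRNA replicate 2 was the only one in replicates 1 and 2. The replicate set term takes it up, so the changes rest on replicates 3 and above. The fitted change was 0.38 ± 0.58 (SE) in null and -1.21 ± 0.58 in siRNA relative to wild type (adjusted p = 0.818 and 0.259). It was 1.59 ± 0.58 in null relative to siRNA (adjusted p = 0.144). Without siRNA 3 the siRNA change was -0.51 and the difference of null from siRNA 0.89, and without siRNA 4 they were -1.90 and 2.28. Gja5 was measured in 1 null sample (-1.37), 2 siRNA samples (-1.58 and -3.47) and 1 wild-type sample (-0.81), too few for a test. Both genes lacked a value in null replicates 1 and 2. Of 10 endothelial markers 4 were tested. The mean of the 3 with a value in all 11 samples ran from -0.82 to 0.59 in null, -1.40 to -0.75 in siRNA and -1.14 to 0.40 in wild-type samples. Of the 10, Kdr, Flt1 and Vwf had a value in every sample. Tek, Cldn5 and Tie1 had none in siRNA, at most 2 in null and 1 in wild-type samples. The others had values in all 3 groups. In null, siRNA and wild-type samples Pecam1 had 2, 2 and 1 values, Cdh5 2, 1 and 1, Esam 2, 3 and 2, and Eng 2, 2 and 2. The part of these cells in the Gja4 values was not tested. In such bulk cultures, fewer cells of a type and less RNA per cell cannot be told apart.

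Gjc1 encodes Cx45, a connexin of vascular smooth muscle, the heart's conduction system and neurons. Its value was 1.02, 0.95, 1.96 and 2.43 in null replicates 1 to 4, 0.95, 1.52, 1.00 and 1.32 in the siRNA replicates and 2.05, 1.21 and 0.50 in wild-type samples. The 3 groups overlapped throughout. The change was 0.61 ± 0.50 (SE, log2; 95% interval -0.48 to 1.70; adjusted p = 0.606) in null and 0.22 ± 0.50 (-0.87 to 1.31; adjusted p = 0.845) in siRNA relative to wild type. The null change was 0.17 without null 4, 0.24 without wild type 6 or with the replicate number as a block, and 1.18 without wild type 3. Within replicates 3 and 4 both null values were above both siRNA values, by 1.03 on average, and within replicates 1 and 2 the mean difference was -0.25. That change of difference did not pass the test (1.28 ± 0.38, SE; adjusted p = 0.052), in a test of 14728 probes that called 21.2%.

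Panx1, which forms the widely expressed ATP release channel of the pannexin family, was higher in siRNA than in null samples at both of its probes, and the difference was called at probe 27372. At probe 27372 the values were -0.45, -0.37, 0.40 and 0.19 in null replicates 1 to 4, 1.61, 2.29, 1.23 and 1.34 in siRNA replicates 1 to 4, and 0.66, -0.24 and 0.26 in wild-type replicates 3, 4 and 6. Every siRNA sample was above every null and every wild-type sample, and null and wild type overlapped. How many of all probes set the siRNA samples apart in this way was not counted.

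Relative to siRNA, null samples were lower at probe 27372 by -1.68 ± 0.38 (SE, log2; 3.20-fold; limma adjusted p = 0.0253), in 4 of 4 same-numbered comparisons. The difference was -2.36 within replicates 1 and 2 and -0.99 within replicates 3 and 4 (difference 1.38 ± 0.41, SE; adjusted p = 0.0529). In replicates 3 and above alone it did not pass (adjusted p = 0.237), nor with consecutive samples as a random block (0.156), without the replicate set term (0.165), with all 14 samples (0.441) or after scaling every sample to 1 median absolute deviation (0.0556). The call was also lost without null 1, 2 or 4 or any siRNA sample, at changes of -1.87 to -1.34 and adjusted p of 0.0505 to 0.0795. The change of siRNA relative to wild type was 1.39 ± 0.45 (SE, 95% interval 0.41 to 2.38, adjusted p = 0.0865). That of null relative to wild type was -0.28 ± 0.45 (-1.27 to 0.70, adjusted p = 0.825). In replicates 3 and above alone, where the wild-type samples lie, the siRNA change was 1.01 (limma adjusted p = 0.215). Replicates 3 and 4 differed from replicates 1 and 2 by 0.71 in null and -0.67 in siRNA samples.

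At probe 32972 Panx1 had values of -2.38, -2.06, -0.05 and -1.55 in null, -0.31, 0.24, -0.28 and 0.44 in siRNA and 0.08, -1.42 and -1.44 in wild-type samples. Null replicate 3 and wild-type replicate 3 reached into the siRNA range, and the other null and wild-type samples lay below it. The difference of null from siRNA was -1.53 ± 0.48 (SE, log2; adjusted p = 0.0785; 0.0475 with the replicate number as a block; 0.0485 without null 3), with the lower value in null at 3 of 4 replicate numbers. Against wild type the change was 1.27 ± 0.57 (SE; adjusted p = 0.206) in siRNA and -0.26 ± 0.57 (adjusted p = 0.881) in null samples. Both probes moved together across the 11 samples, with a Pearson r of 0.828 and a Spearman rho of 0.836, in which they share the samples and their replicate sets.

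Wild-type replicates 1 and 2 matched the other samples in place, at r of at least 0.5, in 401 of the 1344 columns of the array's printed blocks, and those that hold the Panx1 probes are among them (r of 0.901 around probe 27372 and 0.746 around probe 32972, against 0.5 and -0.14 when moved by 1 grid row). Read in place, probe 27372 read -1.23 and -0.03, and probe 32972 read -1.69 in replicate 2. Within replicates 1 and 2 the siRNA mean was thus above wild type by 2.58 at probe 27372 and 1.65 at probe 32972, while the null mean differed from wild type by 0.22 and -0.53. A fit with these wild-type values added, chosen after seeing the data, gave 1.78 at probe 27372 for siRNA relative to wild type (adjusted p = 0.0195). These values rest on that placement: moved by 1 grid row, wild type 1 and 2 would read 2.42 and 3.15 at probe 27372, above every siRNA sample, and 0.10 and 0.30 at probe 32972. For Gja1 neither placement reached an r of 0.5 (0.371 in place and 0.453 when moved by 1 grid row). In place wild type 1 and 2 had no Gja1 value. Moved, they would read 4.24 and 4.64, against 1.93 and 2.14 in siRNA 1 and 2, which was not tested. Microglial markers moved with the siRNA samples: 6 of 8 tested were lower in siRNA than in wild type, where 6.09% of all probes were called, and 5 of 8 were higher in null than in siRNA, where 5.18% were. Of these, Coro1a had a further tested probe that was not called, with a change of -1.77 in siRNA relative to wild type and -0.34 in null relative to siRNA. Their mean level ran from 2.02 to 4.27 in null, 1.24 to 1.75 in siRNA and 3.21 to 3.78 in wild-type samples, and their part in the Panx1 values was not tested.

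The order of the groups thus differed between the members. For Gja1 the mean level was lowest in null, then siRNA, then wild type, with siRNA and wild type not separated by the test. For Panx1 the mean over all samples used was lowest in null, then wild type, then siRNA at both probes, and no neighbours in that order were separated by the test. Within replicates 3 and above null was not below wild type at either Panx1 probe, with means of 0.29 in null and 0.23 in wild type at probe 27372 and of -0.80 in null and -0.92 in wild type at probe 32972. For Gjc1 no neighbours in the order were separated either.

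Of 15 further connexin and pannexin genes, 9 had a probe and 2 could be tested, Gjb1 and Gjb5, with 0 called in any of the 3 limma comparisons (2 at an unadjusted p under 0.05 for null against wild type, 0 for siRNA against wild type and 2 for null against siRNA). Gjb5, which encodes Cx31.1 of skin and placenta, had values of -0.41, -0.53, -0.74 and -0.23 in null, -2.44, -1.63, -1.58 and -1.48 in siRNA and -1.37, -1.57 and -2.49 in wild-type samples. All null samples were above all others, by 1.47 ± 0.43 (SE, log2, adjusted p = 0.122) relative to wild type and 1.30 ± 0.36 (adjusted p = 0.0529) relative to siRNA. How many of all probes set the null samples apart in this way was not counted. Gjb1, encoding Cx32 of oligodendrocytes and Schwann cells, stood at -0.92 ± 0.51 (SD, n = 4) in null, -1.91 ± 0.44 (SD, n = 3) in siRNA and -2.21 ± 0.39 (SD, n = 3) in wild-type samples, a change of 1.18 ± 0.47 (SE; adjusted p = 0.247) for null relative to wild type. The other 7 genes had a value in at most 3 of the 11 samples. Each of those values fell in replicates 3 and above, and none was from an siRNA sample.

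**Figure D3:**
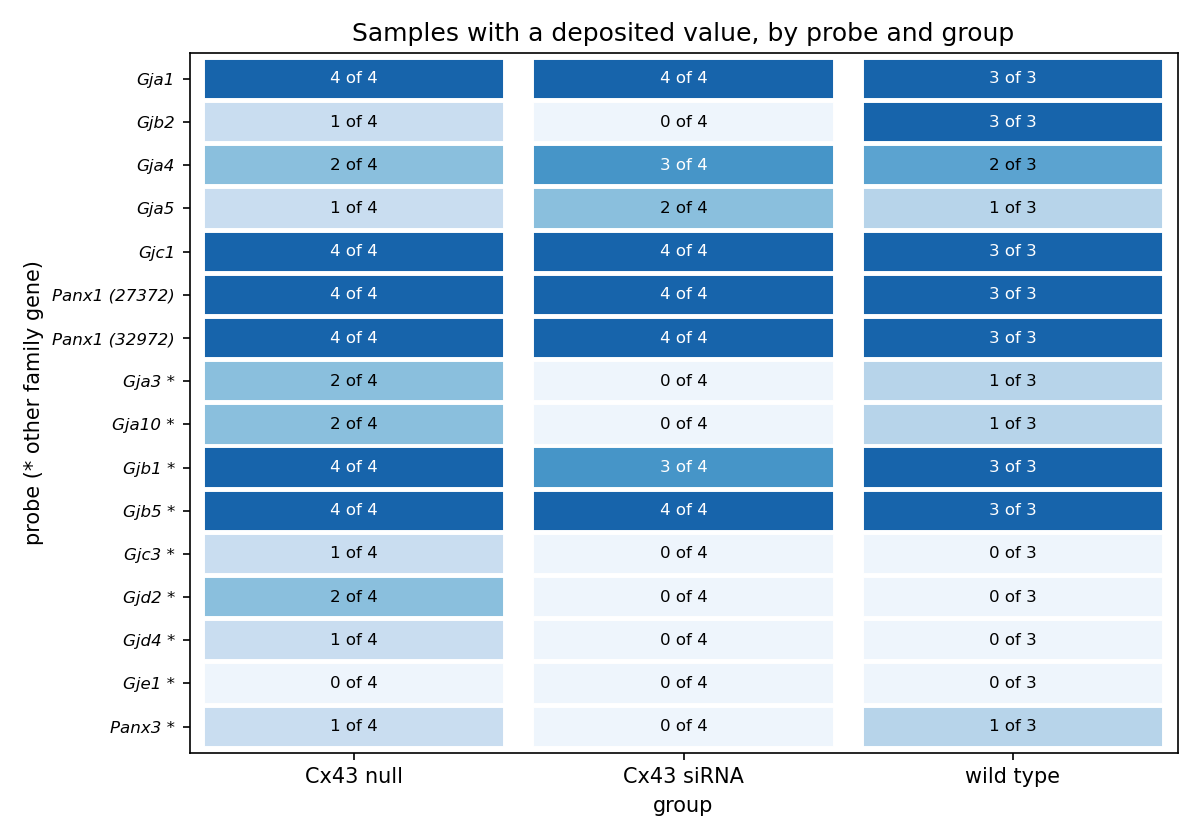
Number of samples with a deposited value for each connexin and pannexin probe (rows; an asterisk marks genes outside the set of 8) in null, siRNA and wild-type samples (columns), darker for a larger share. Gja1, Gjc1, both Panx1 probes and Gjb5 have a value in all 11 samples, and Gje1 in none.

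Proteins that bind Cx43 at the membrane were followed as a list of 21 genes, of which 16 were tested. In siRNA relative to wild type 3 of 16 rose and none fell, where 6.09% of all probes were called, and the median change was 0.22, against 0.13 over all probes. In null relative to wild type 0 of 16 were called, where 0.31% of all probes were (4 at an unadjusted p under 0.05; median 0.09 against 0.23). In null relative to siRNA 1 of 16 was lower, where 5.18% of all probes were called (median -0.01 against 0.09). Cav1, the caveolin that coats membrane caveolae and binds Cx43, stood at 1.79, 1.78, 3.23 and 1.20 in null, 3.42, 3.83, 5.83 and 5.31 in siRNA and 3.53, 1.69 and 3.24 in wild-type samples. All siRNA samples but replicate 1 lay above every other sample. Cav1 rose by 2.26 ± 0.60 (SE, log2; adjusted p = 0.0436) in siRNA relative to wild type and was lower by -2.60 ± 0.50 (adjusted p = 0.0144) in null relative to siRNA.

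Tjp1, the ZO-1 scaffold that binds the Cx43 tail, rose in siRNA relative to wild type by 2.36 ± 0.53 (SE; adjusted p = 0.0226). Its siRNA replicates 3 and 4 read 3.36 and 3.27, against 0.76, -0.16 and 1.27 in wild type, while siRNA replicates 1 and 2 read -2.02 and -2.11, so that without the replicate set term the change was -0.058. Dlg1, another scaffold of junctions, rose by 1.45 ± 0.37 (SE; adjusted p = 0.0391) in siRNA and had a change of 1.48 ± 0.37 (adjusted p = 0.086) in null relative to wild type. Its siRNA replicates 3 and 4 read 3.87 and 3.91, above the wild-type 2.48, 2.34 and 2.87, and its replicates 1 and 2 read 2.03 and 1.77, below them. Without the replicate set term the Dlg1 change was 0.34 (adjusted p = 0.914).

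Among 25 kinases and trafficking or turnover factors of Cx43, 19 were tested, and 1 was called, lower in siRNA than in wild type, a share near the 6.09% of all probes called there. The median changes were 0.19 in null and 0.03 in siRNA relative to wild type and 0.37 in null relative to siRNA. Nedd4, the ubiquitin ligase that binds Cx43, had values of 5.42, 5.76, 5.99 and 6.84 in null, 4.99, 5.61, 0.77 and 2.02 in siRNA and 6.31, 5.97 and 5.70 in wild-type samples. The low samples were siRNA replicates 3 and 4, at the 1 of its 2 probes that could be tested. Nedd4 fell by 3.34 ± 0.92 (SE, log2; adjusted p = 0.0495; 0.0539 with the replicate number as a block) in siRNA relative to wild type.

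Of 16 other large-pore and ATP release channel genes 9 were tested, with 0 called against wild type (1 at an unadjusted p under 0.05 in null and 3 in siRNA) and 1 lower in null than in siRNA. With 9 genes these counts are near the shares of all probes called, 0.31% for null and 6.09% for siRNA relative to wild type and 5.18% for null relative to siRNA. Lrrc8c, a subunit of the volume-regulated anion channel, had values of 0.57, 0.22, 2.19 and 2.13 in null, 1.42, 1.62, 3.85 and 3.28 in siRNA and 2.58, 1.71 and 2.40 in wild-type samples. Null was below siRNA at every replicate number, by a fitted -1.26 ± 0.31 (SE; adjusted p = 0.0349).

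These calls in the lists were sensitive to single samples and to the processing. Tjp1 lost its call without wild type 3 or 4 or siRNA 3 or 4 (adjusted p 0.0634 to 0.156), Nedd4 without any wild-type sample or siRNA 3 or 4 (0.0621 to 0.251), and Dlg1 without any sample except wild type 6 (0.0563 to 0.156). Cav1 lost its call against wild type without wild type 3 or 4, null 1 or 3 or siRNA 2, 3 or 4 (0.0612 to 0.232) and against siRNA without null 4 or siRNA 3 or 4 (0.0514 to 0.0642), and Lrrc8c without any 1 null or siRNA sample (0.0533 to 0.13). With consecutive samples as a random block none of these 6 calls held (adjusted p 0.112 for Cav1 in null against siRNA, the lowest), and none held without the replicate set term or with all 14 samples. After scaling every sample to 1 median absolute deviation, Cav1 in null against siRNA held (0.042), and Cav1 (0.155) and Tjp1 (0.0628) against wild type, Dlg1 (0.176), Nedd4 (0.147) and Lrrc8c (0.159) did not. In replicates 3 and above Dlg1 (0.0848) and Lrrc8c (0.0982) did not pass, and with wild type 1 and 2 added Cav1 (0.0543), Dlg1 (0.237) and Nedd4 (0.154) did not pass against wild type.

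**Figure D4:**
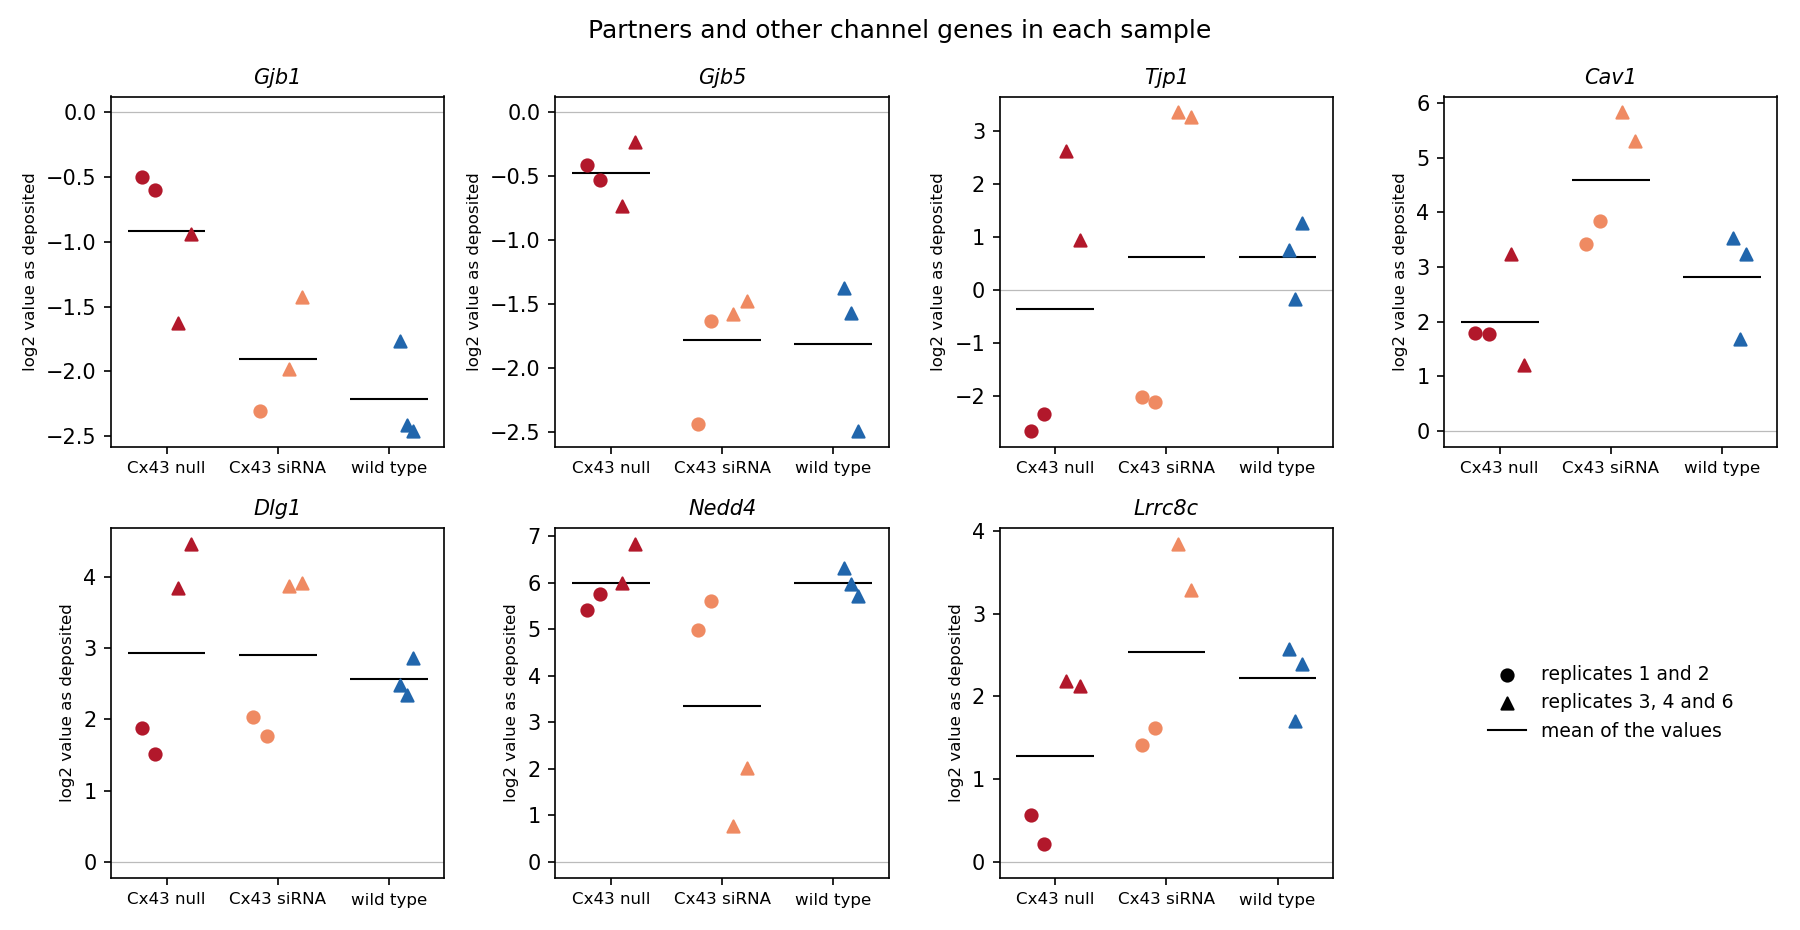
Log2 value as deposited (vertical axes, scaled per panel) of the other connexins tested and of the called partner, turnover and channel genes in null, siRNA and wild-type samples (horizontal axes); circles are replicates 1 and 2, triangles replicates 3, 4 and 6, bars the mean. Nedd4 is low in siRNA replicates 3 and 4 (0.77 and 2.02) only, and Gjb5 lies between -0.74 and -0.23 in the null samples.

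The genes whose values most resembled a member's were taken after subtracting the mean of each replicate set, among 9164 named probes with a value in all 11 samples, as a description over these samples, which share their groups. For Gja1 they were Deaf1 (r = 0.913), Arhgap22 (0.906), Tceal1 (0.875), the ribosomal stalk gene Rplp0 (0.874) and F3, which encodes tissue factor (0.873). Gjc1 was closest to Prkci, an atypical protein kinase C (0.971), Fbxo6 (0.967), the Mediator subunit gene Med12 (0.96), Hspb7 (0.958) and Olfr351 (0.955).

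Panx1 probe 27372 was closest to the interferon-induced Ifi35 (0.982), the pyrimidine kinase gene Uck2 (0.972), Esd (0.972), Rab3ip (0.967) and the glycine transporter gene Slc6a9 (0.962). Panx1 probe 32972 was closest to Prkrip1 (0.989), the lipoprotein receptor gene Scarb1 (0.961), Dnajc11 (0.954), Akr1b8 (0.952) and Mtrex (0.949). No gene was among the 5 closest of both Panx1 probes.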

How the data were processed

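The deposited table holds the authors' processed log2 values, 1 for each probe in each sample. Per the labels, 20 ug of RNA was labelled with Cy3 or Cy5 per sample. No source used here gives the background correction, filters or normalization. The scale (log2) and the centring were read from the values, and larger values were taken as brighter, which no source states. Of the probes, 18179 had 1 gene symbol, 87 several and 15334 were unnamed here, and identifiers checked against a RefSeq gene table (GRCm38.p6) changed 0 symbols.

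Contrasts were fitted with limma 3.58.1 in R 4.3.3 on the values as deposited. A probe was tested with at least 2 values per group and all model terms estimable. P-values are two-sided. The test was checked on simulated data with independent noise in every sample, so that check does not cover correlation between consecutive samples. The members, samples, gene lists and tests were chosen with earlier results of these data known. Same-numbered samples deviated together from their group means (r of 0.121 to 0.647, every one above 0.1). The null and siRNA means span both replicate sets, so the shift between the sets also enters these r. Differently numbered samples were not compared across groups, so the r do not show that the numbers pair the samples. That pairing is an assumption of the fit with the replicate number as a block. The block fit leaves out wild type 6 and the dye term. Named were all members, list genes called in any comparison or else the 2 with the smallest p against wild type, and the 5 probes most like each member measured in every sample. For a gene with several tested probes in a list, the one with the highest mean was used. Marker lists covered astrocytes, endothelium, mural cells, leptomeninges and fibroblasts, microglia, oligodendrocytes, neurons and ependyma. Scanner intensities were not used, so signal over background is unknown, and precision is limited by how few arrays there are.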

Additional observations from a re-analysis of the deposited data

Results flagged for a closer look

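Gja1 and Panx1 probe 27372 stood out because the effects of null and siRNA against wild type differed by the test of that difference: by -2.90 (log2, null minus siRNA) for Gja1 and by -1.68 for Panx1. No sample of a member probe stood apart from its own group in the 8 groups of 4 samples tested for this. Chance marks about 1 in 20 such groups. Each group joined replicates 1 and 2 with replicates 3 and 4, which lay far apart for Gja1, so this check says little there. The wild-type groups of 3 samples were not tested for it.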

How the results depend on the processing

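The calls rest on how replicates 1 and 2 and consecutive samples were handled. In null against wild type, 67 probes were called; without the replicate set term 0 were (1319 at an unadjusted p under 0.05), with all 14 samples 0 (1571), in replicates 3 and above 877, with the replicate block 193, with consecutive samples as a random block 3, after scaling to 1 median absolute deviation 13 (8 higher and 5 lower, against 51 and 16), after quantile normalization 114, and with wild type 1 and 2 added, a setting chosen after seeing the data, 22; leaving out 1 sample gave 1 (null 4) to 147 (wild type 6), a move of over 1.5 times for every sample but wild type 3 and siRNA 2. In siRNA against wild type (1315) there were 66 without the set term, 49 with all 14 samples, 212 with the random block and 401 after scaling, and 225 (siRNA 4) to 1341 with 1 sample left out (over 1.5 times for wild type 4, siRNA 3 and siRNA 4). In null against siRNA (1118) there were 75 without the set term, 19 with all 14 samples, 1893 in replicates 3 and above, 1835 with the replicate block, 131 with the random block and 710 after scaling, and 299 (null 4) to 1608 (over 1.5 times for each null sample and siRNA 1, 3 and 4). Scaling moved the median of all probes in null against siRNA to 0.23, against 0.09, and in siRNA against wild type to 0.03, against 0.13. Without the set term and with all 14 samples it turned to -0.22 and -0.28 in siRNA against wild type, and to -0.055 and -0.073, against 0.23, in null against wild type.

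Gja1 in null against wild type was -5.21 without the set term (adjusted p = 0.618) and with all 14 samples (0.567), -3.11 with the random block (0.28), -3.31 after scaling (0.0909) and -3.31 with wild type 1 and 2 added (0.0603), and -4.00 to -2.65 with 1 sample left out. In null against siRNA it was -2.90 without the set term, with all 14 samples and with the random block, past the threshold in none (0.406, 0.752 and 0.0515), and -2.97 to -2.83 with 1 left out. In siRNA against wild type leaving out 1 sample gave -1.10 to 0.25. Gja1 had no value in wild type 1, 2 or 5. The settings with all 14 samples or with wild type 1 and 2 added thus hold no further wild-type Gja1 value.

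Directions turned for uncalled values of Gjc1 in siRNA against wild type (-0.064 without the set term, -0.13 in replicates 3 and above, -0.15 with the replicate block, -0.15 to 0.79 with 1 sample left out, turned without wild type 6), of Panx1 probe 27372 in null against wild type (0.017 in replicates 3 and above, 0.077 with all 14 samples, 0.11 with wild type 1 and 2 added, -0.56 to 0.023 with 1 left out, turned without wild type 3) and of Panx1 probe 32972 there (-0.84 to 0.31, turned without wild type 3). Tjp1 in siRNA against wild type, called, turned to -0.058 without the set term. The causes were not tested. The replicate block changed the call of Panx1 probe 32972 in null against siRNA (0.0475) and of Nedd4 in siRNA against wild type (0.0539), and of no other result named. Of 231 alternative values of member probes other than Gja1, 207 kept direction and side of the threshold. Only 1 of these results was called to begin with, Panx1 probe 27372 in null against siRNA, and its call was lost in 12 settings. The others were uncalled from the start, so that they stayed uncalled says little of stability.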

Other observations

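Cell type markers beside the members changed as follows by the same limma fit. Of all probes, 0.31% were called for null and 6.09% for siRNA relative to wild type, and 5.18% for null relative to siRNA. In the same order 2980, 4298 and 4527 of all 21595 probes had an unadjusted p under 0.05. Among 7 tested astrocyte markers, siRNA samples differed from wild type in 2: Aldh1l1 had a change of 1.82 and Aldoc, the astrocytic aldolase, of -2.34. Null samples differed from siRNA in Aldoc (3.30) and the transcription factor gene Sox9 (1.31), both higher in null. The endothelial receptor gene Flt1 had a change of -1.74 in siRNA relative to wild type and of 1.46 in null relative to siRNA, and Ptgds, a leptomeningeal marker, was higher in null than in siRNA by 1.88 at the probe used, with 2.60 (called) and 0.75 (not called) at its other probes. Of the mural markers 0 of 5 were called in any comparison (1 at an unadjusted p under 0.05 for null against wild type, 0 for siRNA against wild type and 1 for null against siRNA). In siRNA relative to wild type 1 of 3 neuronal and 1 of 5 ependymal markers were lower, against 0 of 5 leptomeningeal (3 at an unadjusted p under 0.05) and 0 of 4 oligodendrocyte markers (2). In null relative to siRNA 1 of 4 oligodendrocyte and 2 of 5 ependymal markers were higher, and 0 of 3 neuronal markers were called (1). The ependymal Foxj1 was higher there by 1.70 at the probe used, with 1.36 (not called) at its other tested probe. Null samples had 0 called markers against wild type in any of these lists, with at most 2 a list at an unadjusted p under 0.05.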
